A study of Mus musculus with 6 samples.

Results

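The cluster of miR-183, miR-96 and miR-182 is a group of 3 neighbouring microRNA (miRNA) genes whose products were read by small RNA sequencing of entire mouse ovaries. Its members were taken by name: every row of the deposited miRNA table that begins with miR-183, miR-96 or miR-182, on either arm. That gave 6 rows of 1300, namely the 5p arms mmu-miR-183-5p, mmu-miR-96-5p and mmu-miR-182-5p and the 3p arm of each (the species prefix mmu is left out from here on). All members are compared here between 3 libraries from mice at normal pressure and 3 libraries from mice under hypobaric hypoxia.

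The animals were female C57BL/6J mice, called C57BL/6 in the design text, 8 weeks old there and 6 to 8 weeks in the sample descriptions. Both groups were synchronized by gavage of the contraceptive steroids levonorgestrel and ethinylestradiol, with doses of 0.1 and 0.02 mg/kg given for the hypobaric group alone. Normal-pressure mice were housed in Lanzhou at 83.56 kPa (1588 m in the design text, about 1500 m elsewhere, 17.8 kPa oxygen). Hypobaric mice lived in a decompression chamber at 43.12 kPa (8.1 kPa oxygen), simulating 6500 m by the titles and the design text, though the descriptions say 5000 m. The chamber was open for 0.5 h every 2 days. Exposure was 15 days in the design text, and 15, 16 and 17 days for replicates 1, 2 and 3 of both groups in the descriptions. The dark phase is given as 12, 13 and 14 h for normal-pressure replicates 1, 2 and 3 and as 12 h for every hypobaric library. Each group had 15 mice per the labels, which do not say how many mice went into 1 library. The p-values therefore measure the spread among these 6 libraries, some of which may be technical. The comparison bears on the submitters' question of ovarian injury in low-pressure hypoxia.

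A miRNA is cut from a hairpin precursor as a short duplex, and 1 of its arms usually persists in the silencing complex. There the seed, bases 2 to 8 of the mature strand, pairs with target messenger RNAs and lowers their output. These genes are best known from sensory cells of mice, where they are made together in photoreceptors and in hair cells of the inner ear. In cow, the cluster has been studied in granulosa and luteal cells of the ovary, where it lowers FOXO1, a transcription factor that restrains proliferation. FOXO1 is also a target in human tumour cells.

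The mature 5p sequences are shown because their seeds are similar. They are from RefSeq (GRCm38.p6), 5′ to 3′, with the seed in capitals.
miR-183-5p: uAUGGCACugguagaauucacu
miR-96-5p: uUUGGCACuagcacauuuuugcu
miR-182-5p: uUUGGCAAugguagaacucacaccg
No pair of them has the same 7 seed bases. miR-96-5p and miR-182-5p share bases 2 to 7 and agree at 6 of the 7 seed positions. miR-183-5p and miR-96-5p also agree at 6 of 7, while miR-182-5p and miR-183-5p agree at 5 of 7. Outside the seed the closest pair is miR-182-5p and miR-183-5p, which agree at 13 of 15 positions counted from the 5′ end without gaps. There miR-183-5p and miR-96-5p agree at 7 of 15, and miR-182-5p and miR-96-5p at 6 of 16. The longest stretch that any pair shares is 8 bases, so full-length reads of the 3 names differ from each other. Among 1679 mature names in the RefSeq table, miR-1271-5p is the sole other name with bases 2 to 8 of a 5p member, that of miR-96-5p. The deposited miRNA table has no row with that name, so it was not analysed here.

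The hairpins are printed with both mature arms in capitals, the 5p arm first, because nearly all reads came from 1 arm of each. All lie on the minus strand.
Mir183, chr6:30169668-30169737: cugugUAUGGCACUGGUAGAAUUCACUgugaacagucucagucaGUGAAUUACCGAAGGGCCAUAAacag
Mir96, chr6:30169446-30169551: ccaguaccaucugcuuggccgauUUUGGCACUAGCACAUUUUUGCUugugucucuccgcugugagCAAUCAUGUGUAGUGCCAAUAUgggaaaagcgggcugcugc
Mir182, chr6:30165918-30165992: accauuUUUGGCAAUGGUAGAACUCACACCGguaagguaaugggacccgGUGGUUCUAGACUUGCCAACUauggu
Mir183 and Mir96 lie 116 bases apart and Mir182 lies 3453 bases further on, so the cluster spans 3820 bases. In GENCODE vM21 no other gene overlaps that span on either strand. The nearest annotated gene is the long noncoding RNA Rncr4, 3155 bases away on the opposite strand. The coding genes on each side are Nrf1 and Ube2h, 12459 and 41551 bases away.

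The deposited values are reads per 1000000 (RPM) of a library total that the values put at 20800777 to 22559146 reads. Between 6852198 and 8701696 of those fell on miRNAs. The miRNA share of reads was 33.9% ± 3.14 (SD, n = 3) at normal pressure and 39.1% ± 1.73 (SD, n = 3) under hypobaric hypoxia. The gonad-enriched miR-202-5p, a marker of the labelled tissue, was at 1079 ± 164 and 2420 ± 518 RPM (SD, n = 3), and none of the libraries lacked it. Normal-pressure library 2 and hypobaric library 3 stood apart from the other 4 on the second principal component, which held 28.1% of the variance, so results are also given without that pair. In whole tissue, fewer cells of a type and less of a miRNA per cell cannot be told apart.

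All 3 of the 5p arms were at lower levels under hypobaric hypoxia, and for 1 of them, miR-96-5p, the change passed the test. By mean level over the 6 libraries miR-183-5p ranked 148 of 1300, miR-182-5p ranked 158 and miR-96-5p ranked 214. Together the 6 rows summed to 139, 134 and 251 RPM at normal pressure and to 84.2, 61.0 and 99.98 RPM under hypobaric hypoxia. As a share of all miRNA reads the cluster held 0.0382% to 0.0716% at normal pressure and 0.0160% to 0.0263% under hypobaric hypoxia.

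miR-96-5p, the member whose seed mutations cause progressive hearing loss in mouse and human, was the least abundant 5p arm in every library. Its level was 18.6, 21.8 and 35.1 RPM in libraries 1, 2 and 3 at normal pressure, and 12.03, 7.06 and 10.03 RPM in the hypobaric libraries in the same order. All 3 hypobaric libraries lay below all 3 normal-pressure libraries, and the lowest normal-pressure value was 1.54 times the highest hypobaric one. The mean fell from 25.2 ± 8.75 to 9.71 ± 2.50 RPM (SD, n = 3). On the log2(RPM + 1) scale miR-96-5p fell by 1.27, with a standard error (SE) of 0.29, a 95% interval from -1.92 to -0.62 and limma adjusted p = 0.0374. Among the 475 miRNAs tested, those with a mean of at least 1 RPM, that was the rank 8 lowest change and the rank 22 smallest p. The test called 8 of them (1.68%) lower and 15 higher, or 4.84% in all. These calls include miR-199b-3p, lower at means of 2006 and 21.6 RPM, and miR-199a-3p, higher at 31.0 and 2632 RPM. Whether reads moved between these similar names was not tested.

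miR-182-5p, the longest of the mature strands at 25 bases and abundant in the mouse retina, measured 48.6, 53.2 and 114 RPM in libraries 1, 2 and 3 of the normal-pressure group. In the hypobaric libraries it was at 30.5, 23.1 and 32.5 RPM. The groups did not overlap, and normal-pressure library 3 stood far above the other normal-pressure libraries. The means were 71.8 ± 36.3 and 28.7 ± 4.98 RPM (SD, n = 3). The log2 change was -1.20 ± 0.33 (SE), with a 95% interval from -1.95 to -0.45, and it did not pass over all miRNAs tested (limma adjusted p = 0.0810). With library totals replaced by each library's summed miRNA values it did (log2 change -1.40, limma adjusted p = 0.0387). Lower calls made up 4% of the tested miRNAs in that fit. miR-182-5p passed in 4 of 18 alternative settings, and in none of the 6 that left out 1 library at a time.

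miR-183-5p, which gives the cluster its name and opens it in the direction of transcription, had the highest mean. It measured 71.5, 58.4 and 101 RPM in libraries 1, 2 and 3 of the normal-pressure group and 41.3, 30.7 and 57.2 RPM in the hypobaric ones. The groups did not overlap by a narrow margin: normal-pressure library 2 was 1.02 times hypobaric library 3, and the counting intervals of these libraries (55.3 to 61.7 and 54.1 to 60.6 RPM) did overlap. The means were 77.1 ± 22.1 and 43.1 ± 13.3 RPM (SD, n = 3). The log2 change was -0.83 ± 0.29 (SE), with a 95% interval from -1.49 to -0.17, and it did not pass (limma adjusted p = 0.148). Without normal-pressure library 2 and hypobaric library 3 it did, at a log2 change of -1.23 (limma adjusted p = 0.0163), in a fit that called 2.71% of the tested miRNAs lower. For miR-183-5p these were the lowest normal-pressure and the highest hypobaric library, so leaving them out had to enlarge its change. It passed in 2 of 18 alternative settings.

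**Figure D1:**
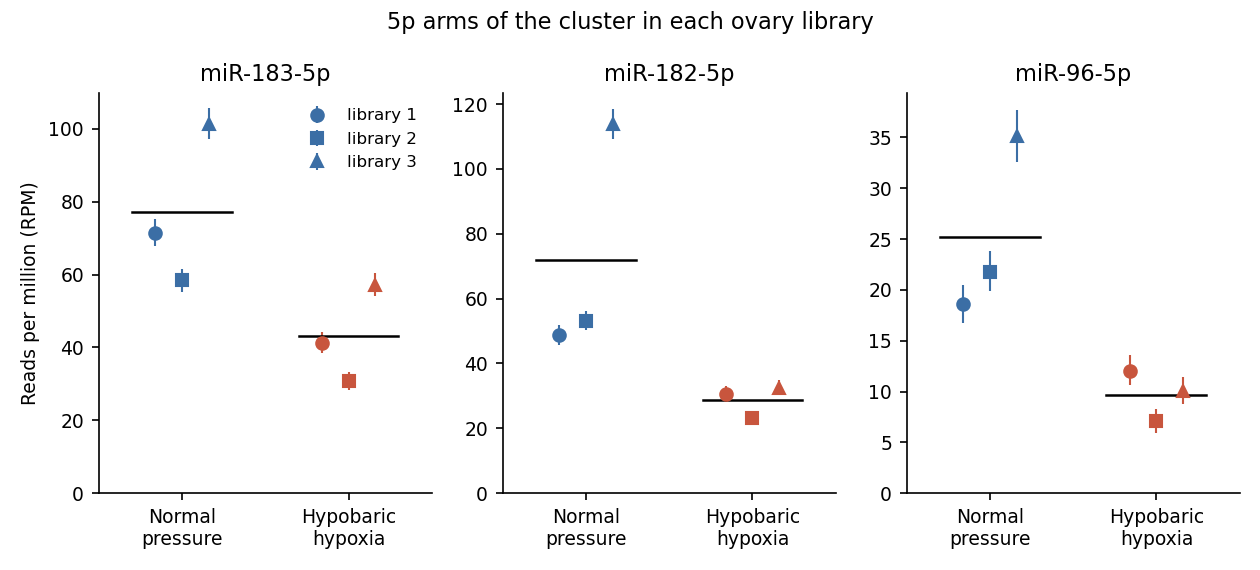
Level of each 5p arm in RPM (vertical axes start at 0) in the 3 normal-pressure and 3 hypobaric libraries, with 95% exact Poisson intervals for counting error as vertical lines and the group mean as a horizontal line. Each hypobaric library lies below each normal-pressure library, and normal-pressure library 3 is the highest in all 3 panels, at 101, 114 and 35.1 RPM.

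Across the table the hypobaric libraries lay below every normal-pressure library in 36 of the 475 tested miRNAs (7.58%) and above in 91 (19.2%). All tested miRNAs together had a median log2 change of 0.15, and 34.3% of them had a negative one. Relative to that median the changes were -1.42 for miR-96-5p, -1.35 for miR-182-5p and -0.98 for miR-183-5p. Scaling by median-of-ratios or by summed miRNA values brought the median to 0.03 or -0.02. These scalings also changed the split of calls, from 65.2% higher to 46.2% with median-of-ratios and 38.7% with summed miRNA values. Lower calls then made up 2.95% of the tested miRNAs with median-of-ratios scaling or edgeR, 4% with summed miRNA values and 6.53% with DESeq2.

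**Figure D2:**
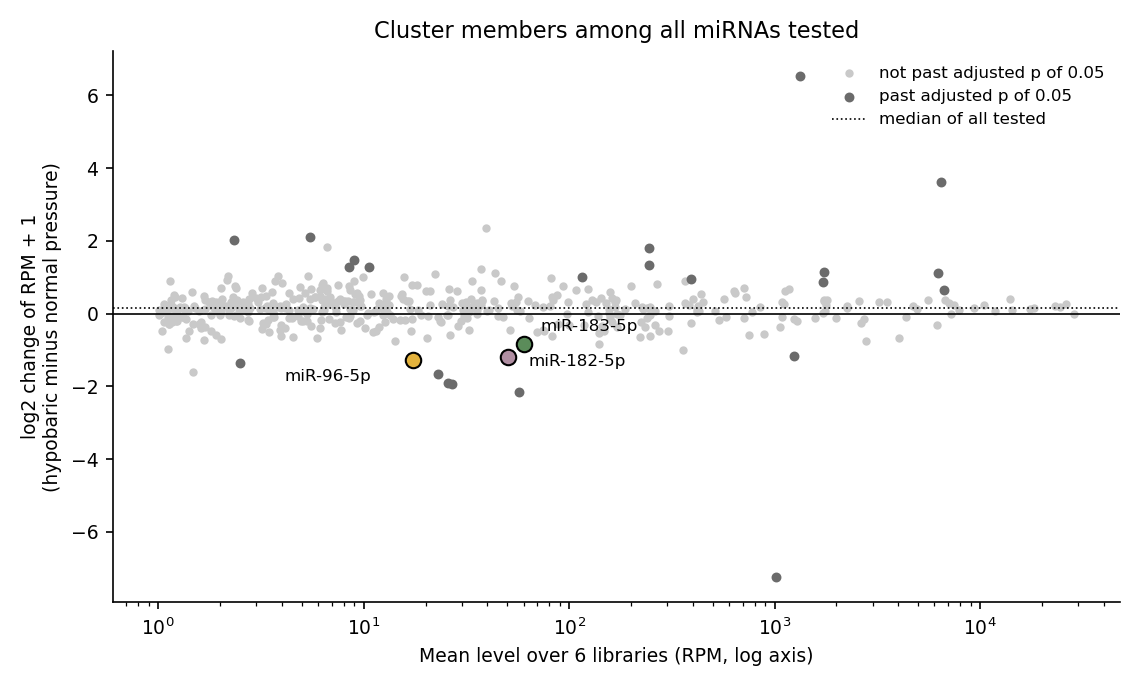
The log2 change (hypobaric minus normal pressure, of RPM + 1) of each of the 475 tested miRNAs against its mean level over 6 libraries on a log axis, with dark points past an adjusted p of 0.05 and the cluster members coloured. All 3 members lie below the dotted median of 0.15, at -0.83, -1.20 and -1.27, and miR-96-5p alone of them is past the threshold.

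Normal-pressure library 3 held the highest level of all 3 members and hypobaric library 2 the lowest. Without normal-pressure library 3 the log2 changes were -0.82 for miR-182-5p, -0.62 for miR-183-5p and -1.01 for miR-96-5p, and none passed (limma adjusted p = 0.110, 0.280 and 0.0909). Without hypobaric library 2 they were -1.06, -0.62 and -1.08, with adjusted p = 0.276, 0.409 and 0.161. The call of miR-96-5p was also lost without normal-pressure library 2 (0.0833), hypobaric library 1 (0.0718) or hypobaric library 3 (0.0582), so it held without normal-pressure library 1 alone (0.0389). The sign was negative for all 3 members in all 18 alternative settings run. The depth behind these values was 148 to 2365 reads per library, which gives a counting error of 2.45% to 6.94% of the mean, while the SD between libraries was 17.4% to 50.6% of it.

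**Figure D3:**
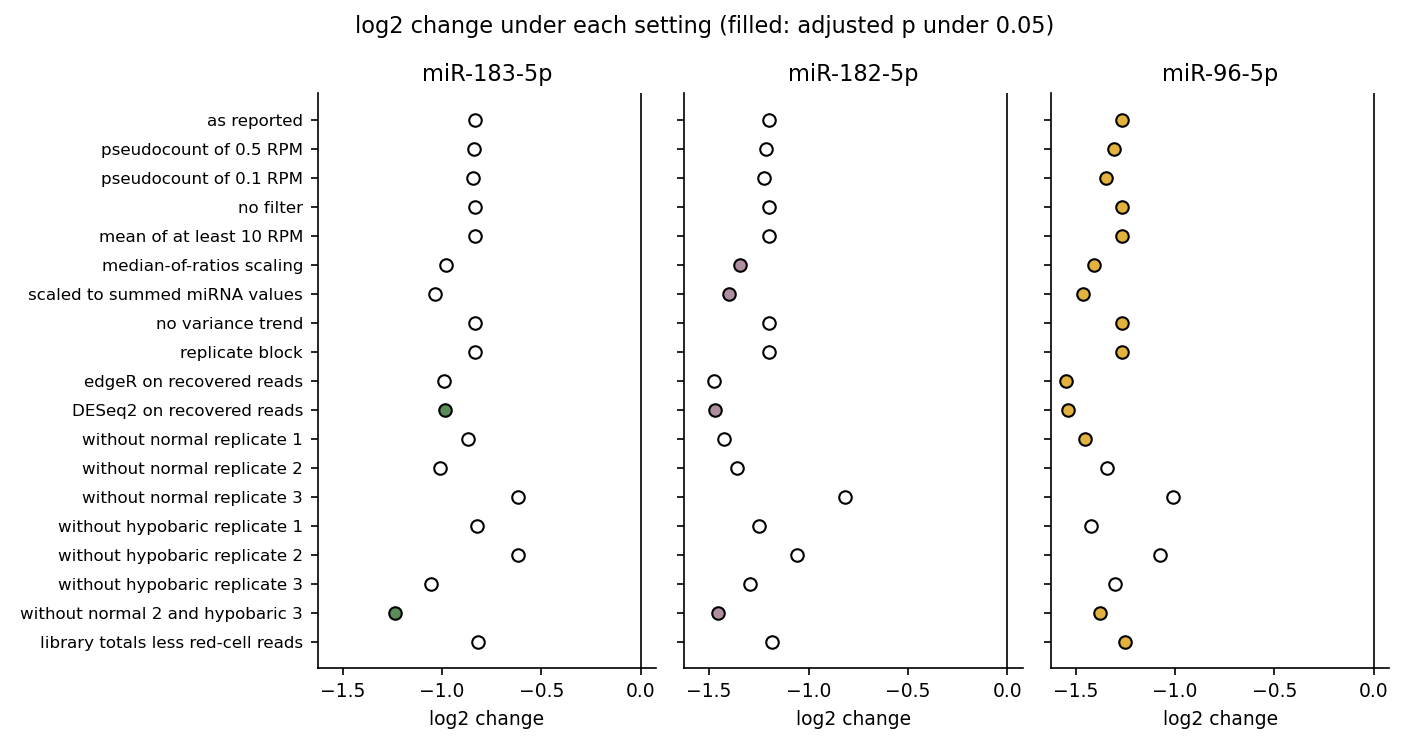
The log2 change of each 5p arm (hypobaric minus normal pressure) as reported and under each of 18 other settings, with filled points where the adjusted p is under 0.05. Every point lies left of 0, between -1.55 and -0.62, and the points closest to 0 are those without normal-pressure library 3 or hypobaric library 2.

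The makeup of the cluster was compared through ratios of RPM within a library, with no correction for length since the mature strands have 22 to 25 bases. miR-182-5p over miR-183-5p was 0.680, 0.910 and 1.12 at normal pressure and 0.739, 0.750 and 0.568 under hypobaric hypoxia, and the groups overlapped. At normal pressure the order of these members was not beyond their spread, since miR-182-5p was the higher one in library 3. In every hypobaric library miR-183-5p was the higher one. miR-96-5p over miR-183-5p was 0.260, 0.373 and 0.346 at normal pressure and 0.291, 0.229 and 0.175 under hypobaric hypoxia, again overlapping. miR-96-5p over miR-182-5p lay between 0.306 and 0.410 in all 6 libraries. These ratios show no separation of the groups, while the summed level did not overlap between them.

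**Figure D4:**
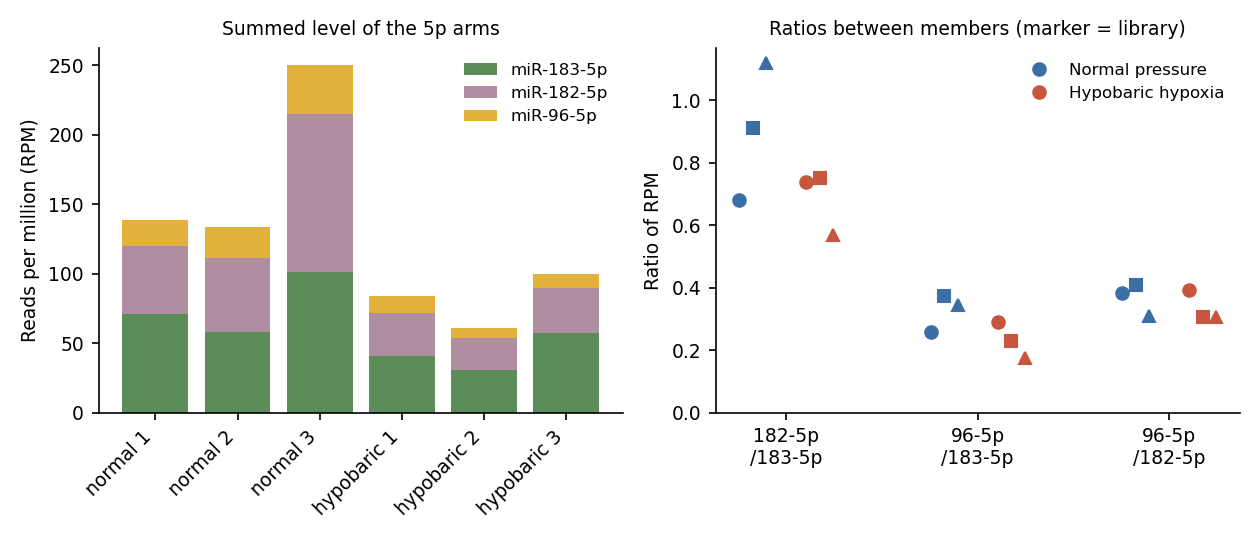
Left, the levels of the 5p arms stacked for each library in RPM, starting at 0; right, ratios of RPM between members within each library, with colour for the group and marker shape for the library number. The stacks are 60.9 to 99.8 RPM under hypobaric hypoxia and 133 to 250.2 RPM at normal pressure, while the ratios of the groups overlap.

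The 3p arms, which lie opposite in the hairpins, were at or near the detection limit and below the level tested. miR-182-3p had 4, 1 and 9 reads in the normal-pressure libraries and 2, 0 and 1 in the hypobaric libraries. miR-183-3p had 1, 2 and 0 reads against 3, 2 and 3, and miR-96-3p had 0, 1 and 1 against 2, 1 and 0. A count of 0 allows up to 3 reads, or 0.133 to 0.144 RPM. In reads the groups touched or overlapped for all 3, so no change was detectable at this depth. The 3p arm held at most 0.390% of the reads of both arms for miR-182, 0.342% for miR-183 and 0.778% for miR-96 in any library.

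Beside the cluster, a list was examined of miRNAs described as responsive to gonadotropins or linked to steroid output in granulosa and luteal cells. Of its 14 miRNAs tested, 5 fell and 2 rose, while 7 did not pass, with a median log2 change of -0.20 against 0.15 for all tested miRNAs and a call rate of 4.84% in the whole table. Those that fell were the 5p and 3p arms of miR-132 and miR-212, which share a locus and are induced by luteinizing hormone in mouse granulosa cells, and miR-21a-5p, which limits granulosa cell death in mouse. In log2 terms, miR-212-3p fell by 2.15, and a decrease was also called in miR-132-5p, which fell by 1.90, each with limma adjusted p = 0.00513. Beside them miR-212-5p fell by 1.95 (adjusted p = 0.0168), miR-132-3p fell by 1.37 (0.00897) and miR-21a-5p fell by 1.17 (0.0148). Those that rose were miR-202-5p and miR-202-3p, by 1.15 and 1.81 (adjusted p = 0.0114 and 0.0254). The list was chosen with earlier results of these data known, and calls of arms from 1 locus are not separate, so its share is a description. The list and the cluster share no member.

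The profile over 6 libraries nearest to the cluster's mean profile was that of miR-132-3p, with a root mean square difference of 0.27 on the log2 scale, against a median of 0.75 over the 445 other annotated miRNAs. The members themselves lay 0.12 to 0.21 from their mean. miR-132-3p measured 3.91, 2.93 and 5.38 RPM in the normal-pressure libraries and 1.04, 0.906 and 0.847 RPM in the hypobaric ones. Like the cluster it was highest in normal-pressure library 3, but it was lowest in hypobaric library 3 and the cluster in hypobaric library 2. At levels this low the added 1 RPM shrinks its log2 change, which bears on its nearness. Its other arm miR-132-5p, with a log2 change of -1.90, was not among the 5 nearest. Next came miR-34a-5p (0.33), a p53-responsive miRNA, then miR-138-5p (0.34), miR-449a-5p (0.35) and miR-615-5p (0.36). Their log2 changes were -0.67, -0.52, -0.99 and -0.70, and none passed (limma adjusted p = 0.149, 0.280, 0.0810 and 0.0837). All 6 points of a profile come from the same libraries and totals, so the likeness is a description.

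Epithelial and ciliated cells, which a dissected ovary can include, also express the cluster, so their miRNAs were listed. The epithelial list (miR-200 family, miR-203-3p and miR-205-5p) summed to 2535 to 4042 RPM at normal pressure and 3256 to 3760 RPM under hypobaric hypoxia, and the groups overlapped. None of its 7 tested members passed, 4 of them had negative changes, and the median log2 change was -0.08. The smallest p belonged to miR-205-5p and miR-200b-3p, with log2 changes of 0.69 and 0.61 (limma adjusted p = 0.140 and 0.273). The ciliated list (miR-34b, miR-34c and miR-449) summed to 2484 to 2687 RPM at normal pressure and 1994 to 2785 RPM under hypobaric hypoxia. None of its 6 tested members passed, and the median log2 change was 0.06. Within it miR-449a-5p, of multiciliated cells, measured 477, 481 and 449 RPM in the normal-pressure libraries and 270, 153 and 318 RPM in the hypobaric ones. Those groups did not overlap. miR-449a-5p was lowest in hypobaric library 2, as were the cluster and the sum of the ciliated list. Among the normal-pressure libraries it was lowest in library 3, where the cluster was highest. Both arms of miR-34b and miR-34c had positive log2 changes, of 0.02 to 0.11. miR-449c-5p had a log2 change of -0.72 (adjusted p = 0.267). No member of either list was at 0 in any library, and the part of such cells in the cluster's level was not tested.

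Of the neural list, the tissue class nearest to sensory cells, none of 8 tested members passed, and 3 had negative changes (median 0.18). The smallest p belonged to miR-138-5p and miR-7a-5p, with log2 changes of -0.52 and -0.44 (limma adjusted p = 0.280 for both). The list summed to 692 to 824 RPM at normal pressure and 493 to 741 RPM under hypobaric hypoxia. The neuronal miR-124-3p was at 2.31 to 5.27 RPM over all libraries.

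Red-cell miRNAs moved in the other direction. Of 6 tested members 4 rose and 2 did not pass, against a call rate of 4.84% in the whole table. The median log2 change was 2.06. The list summed to 726 to 1577 RPM at normal pressure and 9459 to 15085 RPM under hypobaric hypoxia. miR-451a, the main miRNA of red blood cells, rose by 3.63 on the log2 scale (limma adjusted p = 0.000215) and miR-144-3p, of the same locus, by 2.01 (0.00570). miR-486b-3p and miR-486a-3p rose by 2.11 and 1.29 (0.00215 and 0.00911). Not passing were miR-486a-5p and miR-486b-5p, with log2 changes of 2.35 and 1.22 (0.0620 and 0.505). These were at 37.3 and 97.3 RPM in hypobaric library 1 and at 101 and 5.82 RPM in hypobaric library 2. miR-486a and miR-486b come from opposite strands of 1 locus, and reads of an arm can be given to either name. With red-cell reads taken out of the library totals, a setting added after this rise was seen, the changes were -1.25 for miR-96-5p, -1.18 for miR-182-5p and -0.82 for miR-183-5p. The call of miR-96-5p held there (adjusted p = 0.0385).

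The remaining cell lists are given beside a call rate of 4.84% in the whole table. With 4 to 6 members each they are too short to be set against that rate. Of 4 endothelial miRNAs 1 rose, miR-10b-5p, by 0.65 (limma adjusted p = 0.0447), a call that held in 7 of 18 settings. miR-10a-5p had a log2 change of 0.36 (0.290), and the list's median was 0.29. The other members, miR-126a-3p and miR-126a-5p, overlapped between the groups, with log2 changes of 0.16 and 0.22 (0.536 and 0.735). None of 6 leukocyte miRNAs passed (median 0.10); the lymphocyte miRNA miR-150-5p changed by 0.70 (0.0827) and the myeloid miR-223-3p by -0.33 (0.377). None of 4 smooth muscle miRNAs passed (median 0.01). There miR-145a-5p had a log2 change of 0.32 (0.227) and miR-133a-3p, a striated muscle miRNA, 0.04 (0.920), with a negative sign under median-of-ratios or summed miRNA scaling.

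**Figure D5:**
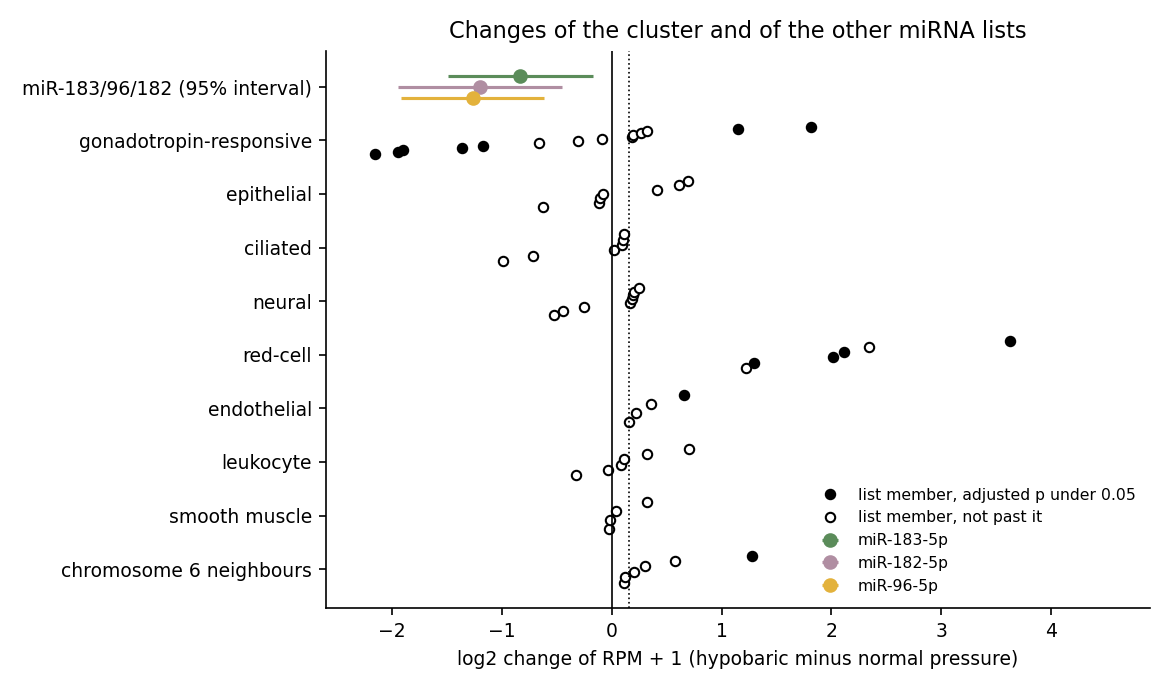
The log2 change (hypobaric minus normal pressure, of RPM + 1) of the 3 cluster members with 95% intervals in the top row, and of each tested member of 9 other lists below, filled where the adjusted p is under 0.05. The dotted line is the median of all tested miRNAs, 0.15; the cluster, 5 gonadotropin-responsive miRNAs and miR-449a-5p of the ciliated list lie at -0.83 or lower, and the 4 filled red-cell miRNAs at 1.29 or higher.

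Of 7 other mature miRNAs that the RefSeq table places within 2 Mb of the cluster on chromosome 6, 6 were tested. Of these 1 rose and 5 did not pass, too few to set against the call rate of 4.84% in the whole table. Their median log2 change was 0.25. The one below the level tested, miR-29a-5p, was at 0.191, 0.709 and 1.15 RPM at normal pressure and 0.755, 0.715 and 0.424 RPM under hypobaric hypoxia, and the groups overlapped. The one that rose was miR-335-5p, of the imprinted gene Mest, 571561 bases from the cluster. Its mean was 5.69 ± 0.680 RPM in the normal-pressure group and 15.5 ± 3.55 RPM in the hypobaric group (SD, n = 3). In log2 terms it rose by 1.28 (SE 0.23, limma adjusted p = 0.0114). On its other arm miR-335-3p had a log2 change of 0.57 (0.290). The changes were 0.30 for miR-29a-3p (0.589), 0.20 for miR-129-5p (0.713), 0.12 for miR-29b-1-5p (0.810) and 0.11 for miR-29b-3p (0.887). That of miR-29b-3p was negative with median-of-ratios scaling and with summed miRNA values. miR-129-5p and miR-29b-3p are also encoded on other chromosomes, so their reads are not of this region alone. By its name miR-129-1-3p comes from Mir129-1, the precursor of miR-129-5p in this region, 1143226 bases from the cluster. The RefSeq table does not place it there, so the counts and the median above leave it out. It had a log2 change of 0.27 (limma adjusted p = 0.505). For reference, the hypoxia-inducible miR-210-3p had means of 4.17 ± 0.602 and 13.7 ± 3.25 RPM (SD, n = 3) in these groups and rose by 1.49 in log2 terms (limma adjusted p = 0.00679).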

How the data were processed

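Small RNA was gel-selected from 1.3 µg of total RNA per library and read as 50-base single-end reads on a DNBSEQ instrument, per the labels' protocols. Bowtie2, DESeq2 and GRCm38.p6 appear in the submitters' processing notes without role or version. The rule for reads that match several miRNAs is not stated there. The table is called TPM, but the deposited values are reads per 1000000 (RPM): with a tolerance of 0.0005 RPM, 100% of values in each library were whole reads of 1 implied total. The authors' totals were kept. Libraries of a group differed beyond sampling noise (chi-square over degrees of freedom at least 119).

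Hypobaric hypoxia was compared with normal pressure, 3 libraries each, by limma 3.58.1 (R 4.3.3) on log2(RPM + 1) with an intensity trend, two-sided, over the 475 rows with a mean of at least 1 RPM. P-values were Benjamini-Hochberg adjusted over all of them, with a threshold of 0.05. This scale understates changes of low miRNAs. Of the 6 cluster rows 3 passed this filter. Alternatives were other pseudocounts, filters and scalings, no trend, a replicate block, edgeR 4.0.16 and DESeq2 1.42.0 on the recovered reads, and leaving out libraries. The fits were also run on simulated counts with the same dispersion for every miRNA and as many rises as falls. These data do not have that form, so the run checks the code and not the calls. Intervals for single libraries are exact Poisson (95%), and with the floor of 3 reads they cover counting error only, since PCR copies cannot be told from separate molecules. Members and lists were chosen with earlier results of these data known, so no p is adjusted over a list and none is given for a sum or ratio of members.

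The text names all cluster rows, the 5 nearest profiles, the tested chromosome 6 neighbours and miR-210-3p. In each list it names the members past the threshold and the 2 with the smallest p. Added after their values were seen were miR-124-3p, miR-29a-5p, miR-126a-3p, miR-126a-5p, miR-129-1-3p, miR-199a-3p, miR-199b-3p, miR-486a-5p and miR-486b-5p. Counts of named miRNAs over the alternative settings leave these out. Of 1025 annotated rows 867 matched a RefSeq mature name, among them all 6 members, and the 3 hairpins have the same coordinates in GENCODE vM21. The smooth muscle and granulosa lists share miR-145a-5p, and the neural list and the chromosome 6 neighbours share miR-129-5p. Tables and figures used Python 3.11.15, pandas 2.3.3, numpy 2.4.6, scipy 1.17.1 and matplotlib 3.10.9.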

Additional observations from a re-analysis of the deposited data

How the results depend on the processing

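The cluster's negative changes kept their sign in all 18 alternatives, but their calls did not. miR-182-5p passed with median-of-ratios scaling (-1.35), summed miRNA values (-1.40), DESeq2 (-1.47) and without normal-pressure library 2 and hypobaric library 3 (-1.45). miR-183-5p passed with DESeq2 (-0.98) and without that pair (-1.23). miR-96-5p passed in 13 of 18, each of the other 5 leaving out 1 library. Leaving out 1 library at a time gave -1.45 to -1.01 for miR-96-5p, -1.42 to -0.82 for miR-182-5p and -1.06 to -0.62 for miR-183-5p. In all, 23 miRNAs passed, 15 higher and 8 lower. Lower calls numbered 14 with median-of-ratios scaling (12 higher), 14 with edgeR (11 higher) and 19 with summed miRNA values (12 higher); DESeq2 called 63, 32 higher and 31 lower, and the fit without the pair 49, 36 higher and 13 lower. Without 1 library the total ran from 10 to 34, with 5 to 25 higher and 4 to 9 lower; it was 11 without hypobaric library 1, 10 without hypobaric library 2 and 34 without hypobaric library 3. The cause was not tested.

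Deviations of same-numbered libraries from their group means had no common sign (correlations 0.346, -0.469 and -0.288 over 475 miRNAs). With 3 libraries per group this cannot exclude a pairing. By the descriptions, same-numbered libraries of both groups had the same exposure days. With the replicate block 23 miRNAs passed, and adjusted p was 0.0438 for miR-96-5p, 0.0505 for miR-182-5p and 0.0951 for miR-183-5p. Leaving aside the miRNAs named after their values were seen, 14 named non-members passed. Of these, 6 passed in every alternative that gave them a value, and none of the 14 changed sign. Of 18 that did not pass, 4 changed sign somewhere. With median-of-ratios scaling, summed miRNA values, edgeR and DESeq2, miR-133a-3p was at -0.11, -0.17, -0.14 and -0.13 and miR-29b-3p at -0.042, -0.097, -0.18 and -0.17. Without the pair miR-129-5p was at -0.13 and miR-29b-1-5p at -0.32. Leaving out 1 library gave -0.077 to 0.15 for miR-133a-3p, -0.30 to 0.55 for miR-29b-3p and -0.13 to 0.32 for miR-29b-1-5p. Depth limits the 3p arms, with at most 9 reads in a library.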
